A study of Mus musculus with 3 samples.

Results

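The 10 genes described here, out of 50262 in the table, are Spry1, Spry2, Spry4, Spred1, Dusp4, Dusp6, Etv1, Etv4, Etv5 and Errfi1. They were chosen by name as transcripts that lie downstream of EGFR and ERK, and the rule uses no measured value, although they were proposed with earlier results of these data known. Their RNA was compared between cells in which RNA of the human EGFR transgene was detected and cells in which it was not, within gliomas of mice. Viable cells of each tumor-bearing brain were split by FACS on the leukocyte surface protein CD45 and captured in inDrop droplets, where every mRNA molecule receives its own tag (a unique molecular identifier, UMI). The deposited runs pool 24 libraries of early, medium and late tumors, with 1 tumor sample per stage and 4 technical libraries per stage and sort. The stage called late here is labelled large in the deposited annotation. All animals shared a conditional human wild-type EGFR transgene, Cdkn2a-/- alleles and a conditional luciferase reporter, on a mixed strain background. Tumors were started in adult mice by a Cre-bearing lentivirus injected into the striatum, so that recombined cells are those the virus reached there and their progeny. For its single-cell samples the study names only Early and Late stages, and each Early sample pooled 2 mice or tumors. The deposited annotation does not give the number of mice in the medium sample. Normal brain was not analysed here, and the controls are therefore other cells of the same tumor-bearing brains, with the same germline alleles.

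EGFR is a receptor tyrosine kinase that signals through RAS, RAF, MEK and the kinase ERK. ERK turns on genes that feed back on its own pathway. The Sprouty and Spred proteins restrain the path from receptor to RAF, the dual-specificity phosphatase Dusp6 removes the phosphates that activate ERK in the cytoplasm and Dusp4 does so in the nucleus, and Errfi1 (Mig6) binds and inhibits the EGFR kinase itself. Etv1, Etv4 and Etv5 form the PEA3 group of ETS transcription factors, which are both induced by ERK and used as its readout. Capicua, a repressor that ERK inactivates, is known to hold down several of these genes in cells with low ERK activity. Oligodendrocyte progenitors, which are marked by the receptor Pdgfra, are known to use the same pathway through that receptor.

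The promoters of the members were read to see which letters they share, because the results below turn on genes of this group that moved differently. RefSeq promoters of GRCm38.p6, 250 bases before to 50 after a start, were matched for 7 of the 10 members, with 10 promoters in all. Those of Etv4, Dusp4 and Spry4 were not used. The capicua octamer (TGAATGAA or TCAATGAA, both strands) was in 2.03% of 32851 promoters and in 1 of these 10, that of Spry2. The ETS core CCGGAAG was in 8.86% of all promoters and in none of the members', the AP-1 letters TGANTCA were in 7.81% and in none, and the CRE TGACGTCA was in 1.79% and in that of Errfi1 alone. No match in a window says only that these letters are not in it. The windows of Spry2 (chr14:105896770-105897069, minus strand), Dusp6 (chr10:99262981-99263280, plus strand) and Etv5 (chr16:22439521-22439820, minus strand, the upstream start of its windows) are shown 5′ to 3′. Spry2 is the 1 match to the octamer letters searched, and Dusp6 the gene whose ratio split by stage. Etv5 is the ETS factor with the most UMIs among those that were lower. The capitals in Spry2 mark the octamer, whose letters lie 54 bases before the start.
Spry2: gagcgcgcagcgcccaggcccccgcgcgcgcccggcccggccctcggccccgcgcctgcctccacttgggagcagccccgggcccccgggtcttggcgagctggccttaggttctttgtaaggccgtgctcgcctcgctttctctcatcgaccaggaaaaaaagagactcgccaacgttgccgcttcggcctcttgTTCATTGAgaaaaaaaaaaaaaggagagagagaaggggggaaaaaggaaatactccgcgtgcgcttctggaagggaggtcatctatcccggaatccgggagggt
Dusp6: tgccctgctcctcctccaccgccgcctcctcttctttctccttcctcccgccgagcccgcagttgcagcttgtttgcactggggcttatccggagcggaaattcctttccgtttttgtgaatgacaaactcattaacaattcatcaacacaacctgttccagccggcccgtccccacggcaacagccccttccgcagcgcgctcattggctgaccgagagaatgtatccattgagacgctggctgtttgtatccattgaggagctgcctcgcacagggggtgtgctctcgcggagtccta
Etv5: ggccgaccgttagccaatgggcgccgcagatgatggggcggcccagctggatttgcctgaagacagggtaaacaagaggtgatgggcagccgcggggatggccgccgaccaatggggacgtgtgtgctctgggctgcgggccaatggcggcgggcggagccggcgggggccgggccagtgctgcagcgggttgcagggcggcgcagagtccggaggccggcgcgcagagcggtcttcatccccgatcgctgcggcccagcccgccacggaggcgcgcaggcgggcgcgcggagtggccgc

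Of the 20811 deposited cells, 17781 were kept, 6596 of the CD45- and 11185 of the CD45+ sort, with 5381839 to 10808099 UMIs for each stage and sort. Kept libraries held 17 to 1751 cells. Of 15845 distinct cell barcodes, 566 were found in 2 or more libraries of the same run, and 136 of the cells with transgene RNA shared a barcode in that way. The members were measured at different depths. Dusp6 had 6878 UMIs and Etv1 5914 over all kept cells, followed by Spred1 (5293), Etv5 (4593), Spry2 (2665), Spry1 (2193), Errfi1 (1625), Spry4 (883), Etv4 (575) and Dusp4 (290). Between 1.11% of cells (Dusp4) and 15.7% (Spred1) had a UMI, so the levels are sums over many cells, given as CPM, a gene's UMIs scaled to a common total. Genes that overlap a member had 0 UMIs in the table. Intervals are exact at 95% and cover counting error only.

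The transgene defined the cells with human EGFR (hsEGFR) at 2 or more UMIs, which were 297 CD45- cells for the medium and 858 for the late sample. The early sample had 4 such cells and gives no level. The reference cells had no hsEGFR UMI and at least 2 UMIs of Pdgfra, and were 169, 114 and 89 CD45- cells of the early, medium and late samples. The viral iCre transcript, which the rule did not use, was found in 62.63% of the medium and 61.42% of the late hsEGFR cells, and in 0, 6 and 0 of the Pdgfra cells of the early, medium and late samples. By marker genes, 654 hsEGFR cells (56.4%) fell in a class with markers of oligodendrocyte progenitors and 488 (42.1%) in a glioma-like class marked by Lgals1, which are called the progenitor-like and the Lgals1 class. The marker lists of both classes include hsEGFR, and that of the progenitor-like class also includes Pdgfra, so the naming is not independent of the rule. The progenitor-like class includes a cluster of 115 cells, all of the medium sample, that met 3 of 7 markers. These were Cspg4, Ptprz1 and hsEGFR, without Pdgfra, Olig1, Olig2 or C1ql1. Of the Pdgfra cells, 81.5% fell in the progenitor-like class, 10.2% were fibroblast-like and 3.23% choroid plexus-like, so the reference was not a pure progenitor class. Mouse Egfr stood at 9.8 and 9.0 CPM in the medium and late hsEGFR cells against 55.0 and 56.7 CPM in the Pdgfra cells of the same samples. The log2 change was -2.42 (edgeR's quasi-likelihood test with Benjamini-Hochberg adjustment, adjusted p = 0.00435).

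Most members lay at a higher level in hsEGFR cells than in the CD45- cells with no UMI of hsEGFR or of Pdgfra. Cells with 1 UMI of hsEGFR, or with none and 1 UMI of Pdgfra, are in no group. In both the medium and the late sample 8 of the 10 lay above these other cells, and Etv1 and Errfi1 lay below them. Of the 20019 genes with at least 10 UMIs over these sums, 35.8% lay above in both samples and 36.8% below in both. The counting intervals lay apart in both samples for 7 members above and for Errfi1 below, where they did so for 13.9% of genes above and 12.4% below. Etv4 stood at 29.4 and 39.9 CPM in hsEGFR cells of the medium and late samples, against 2.7 and 1.7 CPM in the 1140 and 1164 other cells. Spry4 stood at 43.3 and 80.1 CPM against 4.9 and 9.4 CPM. Spry1 stood at 108.6 and 144.6 CPM against 26.8 and 25.4 CPM, and Etv5 at 68.5 and 113.5 CPM against 19.5 and 28.5 CPM. The other cells are a mix of classes, oligodendrocyte-like cells among them, and no test was made. Etv1 was at 222.0 and 216.9 CPM in the other cells, against 137.5 and 214.1 CPM in hsEGFR cells.

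**Figure D1:**
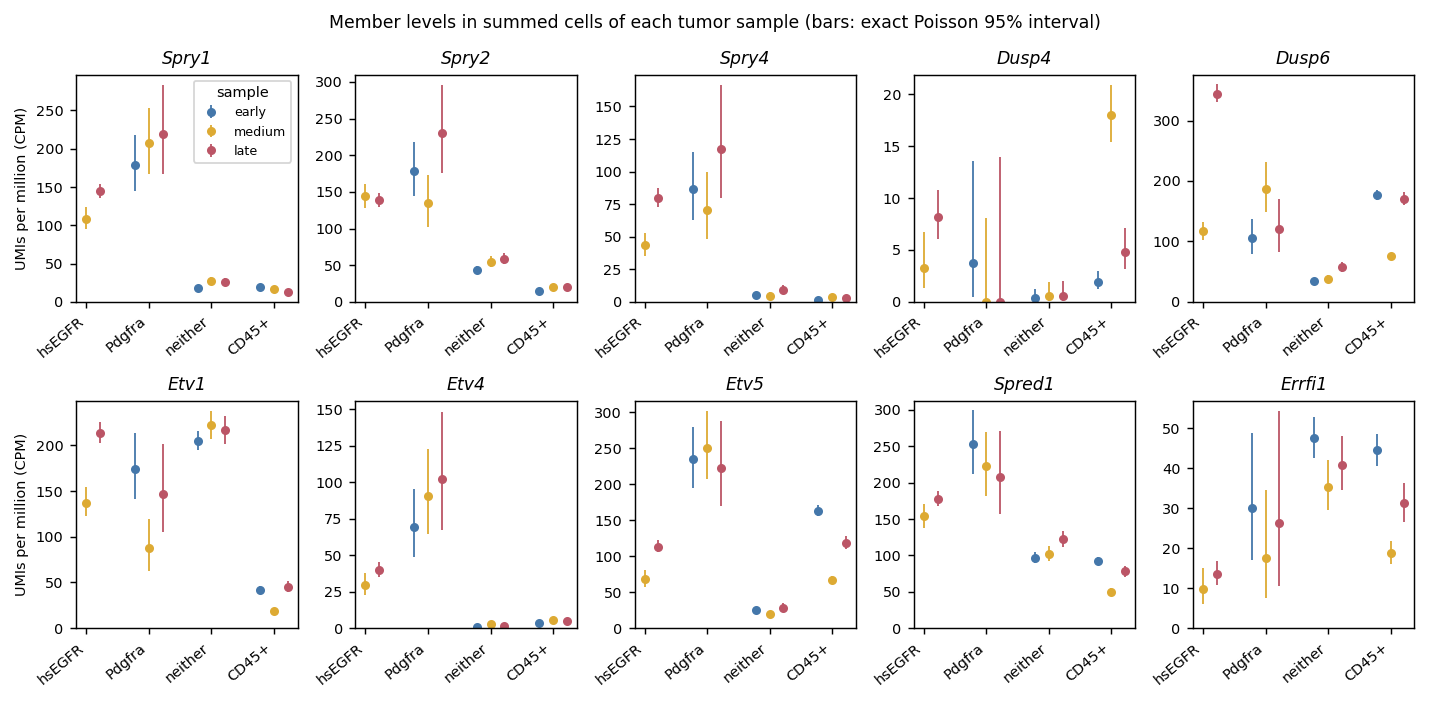
Levels of the 10 members in CPM (vertical axis, starting at 0 in each panel) by cell group (horizontal axis: hsEGFR cells, Pdgfra cells without hsEGFR, CD45- cells with no UMI of either, and all CD45+ cells), with 1 point for each tumor sample of at least 20 such cells and bars for the exact 95% counting interval. Etv4 and Etv5 are higher in Pdgfra cells than in hsEGFR cells, while Dusp6 in the late sample stands at 344.6 CPM in hsEGFR cells and 120.9 CPM in Pdgfra cells.

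The comparison of hsEGFR cells with Pdgfra cells asked whether cells with RNA of the oncogene held more of these transcripts than cells with Pdgfra RNA and none of the transgene. Which receptor the cells of either group signal through was not measured. By share of UMIs, no member was higher in hsEGFR cells by the test, and the ETS factors Etv5 and Etv4 were lower. Counted per 100 cells, Etv5 had 49.5 UMIs in hsEGFR against 100 in Pdgfra cells of the medium sample, but 81.2 against 66.3 in the late one. Etv4 had 21.2 against 36.0 and 28.6 against 30.3, and the other members per cell are given below. Of the 9 members tested, 0 were higher and 2 lower, where 6.26% of the 12610 genes tested were higher and 5.81% lower, 12.1% in all. The median log2 change of the 9 members was -0.47, against 0.03 over all genes. The test rests on 2 pairs of sums, the medium and late samples, with 1 residual degree of freedom. In all 790 genes were higher and 733 lower. Without TMM scaling factors, which moved the median of all genes from 0.03 to -0.13, these were 570 and 951, and no member changed its direction.

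Etv5 was the member that differed most clearly. It stood at 68.5 CPM (57.9 to 80.5) in the medium and 113.5 CPM (105 to 122) in the late hsEGFR cells. In Pdgfra cells it stood at 235 CPM (195 to 279), 251 CPM (207 to 302) and 223 CPM (170 to 287) from the early to the late samples. Every Pdgfra sum lay above both hsEGFR sums, and the intervals did not overlap. The log2 change was -1.28 (SE 0.28, edgeR's quasi-likelihood test with Benjamini-Hochberg adjustment, adjusted p = 0.00805), with -1.88 for the medium and -0.98 for the late sample. In each of the 6 pairs within a sequencing run the ratio was negative, from -2.08 to -0.60. Such pairs are technical libraries of the same tumor samples, not replicates. The ratios of Spred1 and Errfi1, which were not called, were also negative in all 6. Levels of Spred1, Errfi1 and Spry1, also not called, did not overlap between the groups either. The share of all genes with such levels or ratios was not counted.

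Etv4, the least abundant of the ETS members, moved the same way. It stood at 29.4 and 39.9 CPM in hsEGFR cells, and at 69.4, 90.3 and 102 CPM from the early to the late Pdgfra cells. The groups did not overlap, and the change was -1.34 on the log2 scale (SE 0.36, edgeR's quasi-likelihood test with Benjamini-Hochberg adjustment, adjusted p = 0.0262). All 6 ratios within runs were negative, from -2.25 to -0.91. Both calls depended on library choice. Without run 2 neither passed, at -1.11 for Etv5 and -1.12 for Etv4, and without run 3 Etv4 no longer passed, at -1.38. With the medium or the late sample left out, 1 hsEGFR sum remains, which is assumed to vary like the Pdgfra sums. The fit has no block in that case and takes in the early Pdgfra sum. Etv5 and Etv4 then stood at -0.86 and -0.92 without the medium sample, and neither passed, and at -1.66 and -1.27 without the late one, where Etv4 did not pass. With Pdgfra cells taken from 1 UMI on, neither passed (-0.90 and -0.98).

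Etv1 did not follow the other PEA3 members. It stood at 137.5 and 214.1 CPM in hsEGFR cells, and at 174.5, 88.1 and 147.3 CPM in the Pdgfra cells. The groups overlapped, and the log2 change of 0.74 (SE 0.26) had an adjusted p of 0.0842 by edgeR's quasi-likelihood test with Benjamini-Hochberg adjustment. Within the medium and the late sample the ratio was 0.63 and 0.52.

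Dusp6, the cytoplasmic ERK phosphatase, split by stage. In hsEGFR cells it stood at 117 CPM (103 to 132) for the medium and 345 CPM (330 to 360) for the late sample. In Pdgfra cells it stood at 105 CPM (79.4 to 136), 187 CPM (149 to 231) and 121 CPM (82.7 to 171) from the early to the late sample. The log2 ratio of UMI shares was -0.68 (-1.04 to -0.31) for the medium and 1.49 (1.01 to 2.06) for the late sample. These opposite directions were each beyond counting error. Counted per 100 cells, hsEGFR cells had more Dusp6 in both samples, with 84.5 against 74.6 UMIs (medium) and 247 against 36.0 (late). The fit over both gave 0.50 (SE 0.64), with an adjusted p of 0.735 by edgeR's quasi-likelihood test with Benjamini-Hochberg adjustment. Without the medium sample, the late hsEGFR sum alone was set against the early and late Pdgfra sums, with no block. That sum is assumed to vary like the Pdgfra sums, and the Dusp6 change was 1.77. Without the late sample, fitted in the same way against the early and medium Pdgfra sums, it was -0.15. With 1 sample per stage, stage and animal cannot be told apart. The late ratio was positive in each run, from 0.74 to 2.94, while the medium ratio was -0.65 and -1.20 in runs 1 and 2 and 0.60 in run 3.

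Dusp4, the nuclear counterpart, was near the limit of detection and was not tested. It stood at 3.3 and 8.1 CPM in the medium and late hsEGFR cells, with the medium interval from 1.31 to 6.72 and the late from 6.04 to 10.7. It had 3.8 CPM in the early Pdgfra cells, and a count of 0 in the medium and late Pdgfra cells allows up to 8.12 and 13.9 CPM. A difference was therefore not detectable at this depth.

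The Sprouty and Spred inhibitors did not pass the test in either direction. Spry1 stood at 108.6 and 144.6 CPM in hsEGFR cells and 178.2, 207.0 and 219.1 CPM in Pdgfra cells. These levels did not overlap, but the log2 change of -0.62 (SE 0.25) had an adjusted p of 0.131 by edgeR's quasi-likelihood test with Benjamini-Hochberg adjustment. Spry2 stood at 144.0 and 139.2 CPM against 178.2, 134.3 and 230.4 CPM, and the groups overlapped. Spry4 stood at 43.3 and 80.1 CPM against 86.3, 70.5 and 117.1 CPM. Spred1, which binds RAS and the RAS-GAP neurofibromin, stood at 153.8 and 178.1 CPM against 253.3, 222.4 and 207.8 CPM, with a log2 change of -0.23 and no call. The share of UMIs was lower for Spred1 within every one of the 6 run pairs, and for Spry1 and Spry4 in 5 of 6, while their UMIs per cell were higher in hsEGFR cells in both samples, except for Spry1 in the medium one.

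Errfi1, the inhibitor of the EGFR kinase, stood at only 9.8 and 13.7 CPM in hsEGFR cells. It stood at 30.0, 17.6 and 26.4 CPM in Pdgfra cells and at 35.4 and 40.9 CPM in the other CD45- cells of the medium and late samples. By share of UMIs the lowest of these sums were those of the cells with 2146 and 2085 CPM of hsEGFR, while per 100 cells Errfi1 had 7.07 UMIs in hsEGFR against 7.02 in Pdgfra cells (medium) and 9.79 against 7.87 (late). Against Pdgfra cells the log2 change of -0.75 did not pass (adjusted p = 0.522 by edgeR's quasi-likelihood test with Benjamini-Hochberg adjustment), and the counting intervals of both stage ratios included 0.

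**Figure D2:**
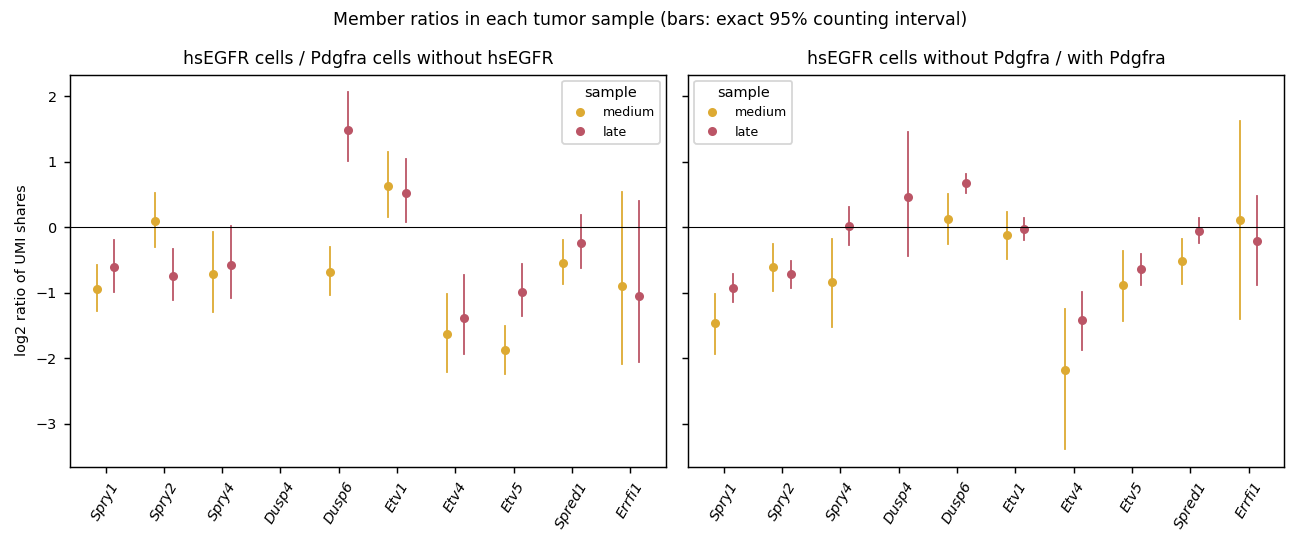
Log2 ratios of the members (vertical axis) between cell groups within the medium and the late sample, with bars for the exact 95% counting interval, in 1 panel for hsEGFR cells against Pdgfra cells and 1 for hsEGFR cells without against with Pdgfra. Intervals wider than 4 are left out. Etv5 and Etv4 lie below 0 in both panels and both samples, and Dusp6 lies at -0.68 and 1.49 in the first panel.

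The level per cell differed from the share of UMIs, since hsEGFR cells were deeper, with a median of 6595 and 6129 UMIs per cell in the medium and late samples against 3542 and 2469 for Pdgfra cells. Counted per 100 cells, Etv5 had 49.5 UMIs in hsEGFR and 100 in Pdgfra cells of the medium sample, but 81.2 and 66.3 in the late sample. Etv4 had 21.2 against 36.0 in the medium and 28.6 against 30.3 in the late sample. Etv1 had 99.3 against 35.1 and 153 against 43.8, and Dusp6 84.5 against 74.6 and 247 against 36.0. Spred1 had 111 against 88.6 and 128 against 61.8, Spry2 104 against 53.5 and 99.7 against 68.5, and Spry4 31.3 against 28.1 and 57.3 against 34.8. Spry1 had 78.5 against 82.5 in the medium but 103 against 65.2 in the late sample. The Sprouty and Spred levels were thus higher per cell in hsEGFR cells, but for Spry1 in the medium sample, and no test was made per cell. Per cell, Etv5 was likewise not lower in the late hsEGFR cells, and its lower CPM there is a lower share of a larger total. Whether more RNA per cell or better capture gave the larger total was not tested. When each cell was thinned to 1000 UMIs, 7.51% and 10.4% of hsEGFR cells had an Etv5 UMI, against 19.6%, 20.7% and 16.7% of Pdgfra cells and 2.42%, 1.72% and 2.10% of the other CD45- cells. Unthinned shares were 18.9% and 33.3% in hsEGFR cells, 35.5%, 39.5% and 37.1% in Pdgfra cells and 4.55%, 3.33% and 4.81% in the others.

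Levels were also set against the amount of the transgene in a cell, as a description. Cells were divided by hsEGFR UMIs into 1, 2 to 4, 5 to 9, and 10 or more, and depth rose with the bin, with medians between 3709 and 7860 UMIs (medium) and between 2509 and 8080 UMIs (late). Etv5 stood at 27.4, 88.0, 85.1 and 56.7 CPM over these bins in the medium sample, all below the 251 CPM of Pdgfra cells. In the late sample it stood at 51, 124, 161 and 101 CPM. Dusp6 stood at 95.9, 112, 123 and 116 CPM in the medium sample, where the intervals of all bins overlapped. In the late sample it stood at 273 CPM (223 to 330) with 1 UMI and at 368, 375 (338 to 415) and 334 CPM with more. Spry1 stood at 69, 61, 81 and 132 CPM in the medium and 100, 122, 123 and 153 CPM in the late sample. Spry2 stood at 123, 94.1, 136 and 160 CPM in the medium sample and 97.8, 111, 125 and 147 CPM in the late one, so both were highest in the last bin. Spry4 stood at 27.4, 78.9, 49.2 and 31.9 CPM in the medium sample, where the interval of the last bin (22.9 to 43.2) lay below that of cells with 2 to 4 UMIs (51.5 to 116), and at 51.5, 88.0, 64.4 and 82.4 CPM in the late one. The 1-UMI bin of the medium sample held 29 cells, and no trend was tested.

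**Figure D3:**
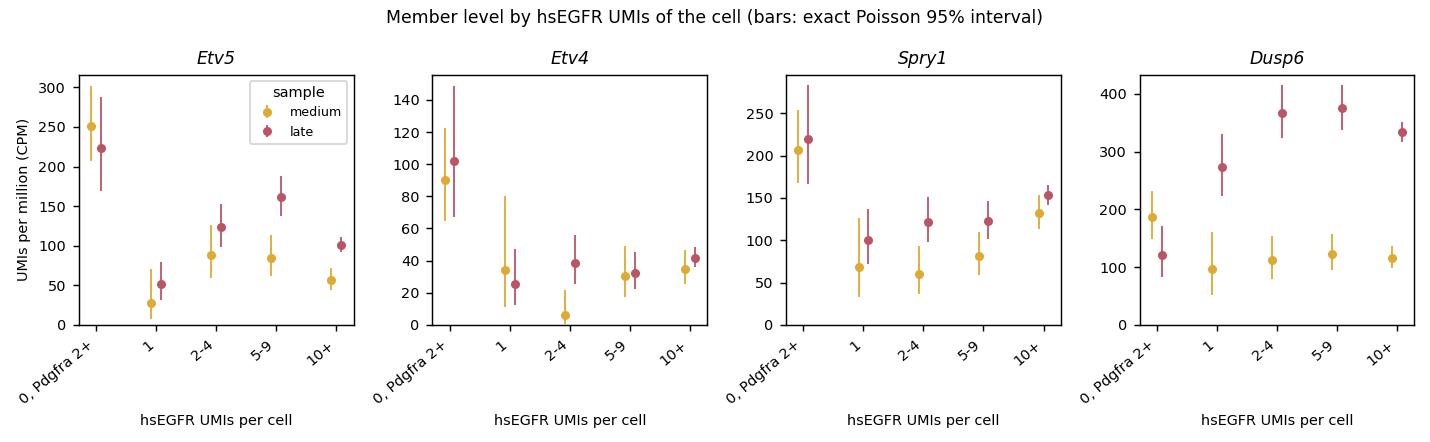
Levels of Etv5, Etv4, Spry1 and Dusp6 in CPM (vertical axis, from 0) by the number of hsEGFR UMIs per cell (horizontal axis, with Pdgfra cells without hsEGFR at the left), in the medium and late samples, with exact 95% counting intervals. Etv5 in the late sample peaks at 161 CPM in cells of 5 to 9 UMIs, below the 223 CPM of Pdgfra cells, and Dusp6 differs more between the samples than between bins.

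The kind of hsEGFR cell went with which members were high. In the Lgals1 class Dusp6 stood at 228.8 and 523.8 CPM in the medium and late samples, against 86.5 and 84.6 CPM in the progenitor-like class. The Lgals1 class held 57 of the medium and 427 of the late hsEGFR cells, and its own Dusp6 level also differed between these samples. Etv1 stood at 240.7 and 269.7 CPM in the Lgals1 class against 106.6 and 134.4 CPM. Spry4 was close in the medium sample, 47.7 against 40.3 CPM, but 112.2 against 34.7 CPM in the late one. Dusp4 stood at 11.9 and 13.6 CPM against 0.7 and 0.4 CPM. Spry2 went the other way, with 95.5 and 106.7 CPM in the Lgals1 class and 163.9 and 185.9 CPM in the progenitor-like class, as did Spry1 (37.8 and 117.0 against 137.8 and 185.1 CPM) and Etv4 (11.9 and 36.0 against 37.1 and 45.5 CPM). Etv5, by contrast, was somewhat higher in the Lgals1 class, 93.5 and 133.9 against 59.8 and 84.2 CPM. These classes were not tested against each other.

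Against the same Pdgfra cells, each class alone gave its own calls, in a comparison chosen after seeing the data. Progenitor-like hsEGFR cells had 1 member of 9 called, where 3.04% of genes were higher and 4.27% lower, 7.31% in all. This was Etv5, at -1.66 (adjusted p = 0.00365, edgeR's quasi-likelihood test with Benjamini-Hochberg adjustment), and Dusp6 at -0.76 did not pass. Lgals1-class cells had 4 of 8 called, where 12.7% of genes were higher and 12.6% lower, 25.3% in all, with Dusp6 (1.38, adjusted p = 0.0463) and Etv1 (1.36, adjusted p = 0.00658) higher and Etv4 (-1.83, adjusted p = 0.0154) and Spry1 (-1.37, adjusted p = 0.0251) lower, by the same edgeR test. With both groups limited to progenitor-like cells, which leaves the Lgals1 class out of the hsEGFR cells and the fibroblast-like and choroid plexus-like cells out of the reference, Etv5 (-2.06), Etv4 (-1.54) and Spry4 (-1.35, adjusted p = 0.0265) were lower by edgeR's quasi-likelihood test, where 7.25% of genes were higher and 4.86% lower, 12.1% in all. In the full groups the summed markers of fibroblasts stood at 217 and 198 CPM in hsEGFR cells against 916, 1865 and 2478 CPM in Pdgfra cells, and those of choroid plexus at 74 and 38 against 13500, 13330 and 1919 CPM. The heat shock genes that dissociation can induce stood at 1311 and 1578 CPM in hsEGFR cells against 2732, 1986 and 1779 CPM in Pdgfra cells, and their part in the member calls was not tested.

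Other genes of the pathway were counted from lists fixed by name. Of 18 further phosphatases and feedback inhibitors tested between hsEGFR and Pdgfra cells, 1 was higher and 1 lower, with a median of -0.60. The higher gene was Socs5, a negative regulator of EGFR, with 42.4 and 51.8 CPM in hsEGFR cells but only 2 and 4 UMIs in the medium and late Pdgfra cells, too few for a fold, and with 63.8 CPM (34 UMIs) in the early Pdgfra cells. The lower was Dusp1 (-1.83), a phosphatase of p38 and JNK as well as ERK. Of 11 other ERK output genes 2 were higher, the transcription factor Myc (1.88) and the membrane protein Emp1 (1.61). Of 13 immediate-early genes 3 were higher, Egr3, Egr2 (1.64) and Zfp36 (1.24), and 2 lower, Fosb (-0.74) and Jun (-0.66). Egr3 had 215 and 626 UMIs in the medium and late hsEGFR cells against 1 and 3 in the Pdgfra cells, again too few for a fold. None of 19 genes of the RAS-RAF-MEK-ERK core and none of 12 other ETS factors passed by edgeR's quasi-likelihood test. Of 15 receptors and ligands 3 were higher, Pdgfa (2.20), Erbb3 (2.08) and the EGFR ligand Hbegf (1.90), and 5 lower, with Pdgfra itself set by the rule. Of 10 proliferation genes 4 were higher, led by Ccnb1 (2.17), and of 8 heat shock genes 2 were lower, Hspb1 (-3.17) and Dnajb1 (-1.31). List medians went both ways, against 0.03 over all genes. They were 0.50 for other ERK output genes, 0.53 for other ETS factors and 1.07 for proliferation genes. Immediate-early genes had -0.02, the core -0.04, heat shock genes -0.23, and receptors and ligands -1.14.

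At least 2 UMIs of Pdgfra were then required in both groups. This rule did not match the level of Pdgfra, which stood at 1238 and 1110 CPM in cells with hsEGFR against 3137 and 3101 CPM without, and the cells without were shallower, with medians of 3542 and 2469 against 7544 and 6726 UMIs. The 126 medium and 303 late cells with both were compared with the same Pdgfra cells, so the 2 comparisons share their reference. Of 9 members tested 0 were higher and 1, Etv5, was lower, where 4.66% of 10856 genes were higher and 5.18% lower, 9.84% in all. Etv5 stood at 90.5 and 143.1 CPM in the cells with both, against 251 and 223 CPM in the Pdgfra cells of those samples. The change was -0.99 (SE 0.28, edgeR's quasi-likelihood test with Benjamini-Hochberg adjustment, adjusted p = 0.0326). This call was lost when any 1 of the 3 runs was left out, with values of -1.15, -0.79 and -1.04 without runs 1, 2 and 3, and without the medium sample (-0.58), where 1 sum with both is assumed to vary like the Pdgfra sums. Counted per 100 cells, Etv5 had 73 UMIs against 100 in the medium sample but 109 against 66.3 in the late one. Etv4 stood at 50.2 and 59.0 CPM, with a change of -0.75 that did not pass (adjusted p = 0.212 by the same edgeR test). Dusp6 split here too, against the same Pdgfra cells, with 116.1 CPM against 187 CPM in the medium sample (-0.69). In the late sample it stood at 235.5 against 121 CPM (0.94). Within runs the medium ratio was -1.65 in run 2 but 1.12 in run 3.

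Among hsEGFR cells, those without a Pdgfra UMI were set against those with at least 2. The study itself splits its tumor cells by clusters and by sorting on PDGFRA and GAL1 protein, not by UMIs of Pdgfra. The cells without Pdgfra held less Spry1, Spry2 and Etv4 and more Dusp6. Of 10 members tested 1 was higher and 3 were lower, where 4.98% of 12838 genes were higher and 4.06% lower, 9.04% in all. These are 639 higher and 521 lower genes, and 412 and 518 without TMM factors, where Dusp6 (0.44) was not called and Etv5 (-0.74) was. Spry1 stood at 59.5 and 103.1 CPM in the 147 medium and 465 late cells without Pdgfra, against 164.3 and 195.6 CPM in cells with it. The groups did not overlap, though the share of all genes without overlap was not counted. The change was -1.05 (SE 0.19, edgeR's quasi-likelihood test with Benjamini-Hochberg adjustment, adjusted p = 0.000191). Etv4 stood at 10.6 and 22 CPM against 50.2 and 59.0 CPM, a change of -1.61 (SE 0.34, edgeR's quasi-likelihood test, adjusted p = 0.000982). Both passed in most but not all of the alternatives. Spry1 was no longer called without run 2 (-0.64) or with cells thinned to 1000 UMIs (-0.45), nor Etv4 without run 1 (-1.43) or with DESeq2 (-1.68).

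Spry2 and Dusp6 were closer to the threshold. Spry2 stood at 111.6 and 109.6 CPM without Pdgfra, against 170.2 and 180.4 CPM with it, a change of -0.57 (SE 0.18, edgeR's quasi-likelihood test with Benjamini-Hochberg adjustment, adjusted p = 0.0349). Dusp6 stood at 126.4 and 375.4 CPM against 116.1 and 235.5 CPM, a change of 0.54 (SE 0.17, edgeR's quasi-likelihood test, adjusted p = 0.0345). The medium ratio of Dusp6, 0.12 (-0.26 to 0.50), included 0, and the late ratio was 0.67 (0.52 to 0.82). Per 100 cells, Dusp6 had 81 UMIs without and 93.7 with Pdgfra in the medium sample, and 250 against 179 in the late one. Spry2 was called in no fit that left a run out, with -0.59, -0.62 and -0.58 without runs 1, 2 and 3, and Dusp6 was not called without run 1 (0.44) or run 2 (0.29). Dusp6 kept its call in 6 of 17 alternatives, and among progenitor-like cells alone it stood at 0.025 (adjusted p = 0.991 by the same edgeR test). Etv5 stood at 48.9 and 91.8 CPM against 90.5 and 143.1 CPM, a change of -0.64 that lay just outside the threshold (adjusted p = 0.0532 by edgeR's quasi-likelihood test). Among progenitor-like cells alone Etv5 passed, at -2.77 (adjusted p = 0.000843 by that test). None of the 4 calls held in the fit without the tumor sample as a block, where 12 genes in all passed. The Lgals1 class, described above, is part of this split, since Pdgfra is a marker of the progenitor-like class.

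Cells without Pdgfra were also lower in 7 of 10 proliferation genes, with Ccnb1 at -1.41 and Top2a at -1.09, and higher in 3 of 13 immediate-early genes (Nr4a1 1.02, Egr3 0.65 and Zfp36 0.58). Of 8 heat shock genes that dissociation can induce, 1 was higher, Hspa1b (0.94), and 0 lower, with a median of 0.32. The part of dissociation in the immediate-early values was not tested. Of 18 other feedback genes only Dusp7, a further ERK phosphatase, passed in edgeR's quasi-likelihood test, at 1.14. Of 14 receptors and ligands 4 were higher and 4 lower, with Pdgfra itself set by the rule. The ligands Pdgfa (1.58) and Hbegf (1.17) and the receptor Erbb2 (1.66, with 13 and 68 UMIs against 3 and 20) were higher. The receptors Ntrk2 (-0.92) and Kit were lower, the latter with 2 and 10 UMIs against 19 and 34. The kinase Mapk3 (ERK1, 1.18) and the ETS factor Ets1 (1.00) were also higher. Of 11 other ERK output genes 1 was higher, Emp1 (0.76). Myc, called with Emp1 in the comparison with Pdgfra cells, was not among the genes called here.

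Between the sorts, the Sprouty genes, Etv1 and Etv4 held a larger share of UMIs in CD45- cells, and Etv5 in CD45+ cells. Of 10 members tested in 3 pairs of sums, 5 were higher in CD45- cells and 1 lower, against 25.7% higher and 20.4% lower of 18433 genes, 46.1% in all. In summed sorts, fewer cells of a type and less RNA per cell cannot be told apart. Spry4 stood at 10.9, 22.7 and 54.6 CPM in the CD45- sums, from early to late, and at 1.6, 3.6 and 3.0 CPM in CD45+ cells, a change of 2.82 (SE 0.37, edgeR's quasi-likelihood test with Benjamini-Hochberg adjustment, adjusted p = 0.000878). Etv1 stood between 181.0 and 210.5 CPM in the CD45- sums against 42.3, 18.3 and 45.2 CPM (2.22, SE 0.27, adjusted p = 0.000578 by the same edgeR test). Spry2 (1.72), Spry1 (1.50) and Etv4 (1.32) were also higher. Spry1 and Etv4 did not pass without the medium sample (1.46 and 1.32) or without the late one (0.94 and 0.87), Etv4 not without run 3 (1.17), and Spry1 not without the filter on low counts (1.54). The summed markers of neutrophils stood at 0, 0.305 and 0.0944 CPM in the CD45- sums, from early to late, while those of microglia stood at 914, 373 and 178 CPM from early to late CD45- cells, against 9700, 2931 and 5829 CPM in CD45+ cells.

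Etv5 stood at 39.1, 51.4 and 83.8 CPM in the CD45- sort and at 163.1, 66.7 and 118.9 CPM in the CD45+ sort. The change was -1.34 (SE 0.34, edgeR's quasi-likelihood test with Benjamini-Hochberg adjustment, adjusted p = 0.0178), and its share was lower in CD45- cells in all 9 run pairs. Counted per 100 cells, however, it had 11.6 UMIs against 34.6 in the early sample but 21 against 16.3 and 39.1 against 30.3 in the medium and late ones. Without TMM factors, which moved the median of all genes from 0.04 to 0.40 and the split from 4744 higher and 3759 lower genes to 6559 and 2589, the change was -0.97 and did not pass. Dusp6 stood at 41.0, 76.5 and 234.6 CPM against 176.8, 75.2 and 170.4 CPM, so the sorts crossed between the early and the late sample, and the fit gave no call (-0.87, adjusted p = 0.187 by edgeR's quasi-likelihood test). Errfi1 (-0.33, and 0.03 without TMM factors) and Spred1 (0.50) did not pass either, although Spred1 did without TMM factors (0.86) and without the early sample (0.74). Dusp4, at 0.7, 1.4 and 5.0 against 1.9, 18.0 and 4.8 CPM, missed the threshold (-1.97, adjusted p = 0.0703 by edgeR's quasi-likelihood test). It passed with DESeq2 (-2.05), without run 2 (-2.06) and without the late sample (-3.16), and was -0.83 without the medium one. Of 13 immediate-early genes 10 were lower in CD45- cells and 0 higher. Of 8 heat shock genes that dissociation can induce, 4 were lower, led by Hspa1a (-1.37), and 2 higher, Hspb1 (2.16) and Hsph1 (1.03). Of 15 other ETS factors 9 were lower and 1 higher, and of 22 other feedback genes 5 were higher and 4 lower, with Dusp2 (-4.57) the lowest. Spry3, the highest by the fit, had 34, 20 and 45 UMIs in CD45- against 3, 1 and 3 in CD45+ cells, too few for a fold.

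By cell class, each member had its own order. Levels of a class are means over tumor samples with at least 20 cells of it, with the SD over samples, and are descriptions. Etv5 in CD45- cells was highest in the microglia-like class (231 ± 128 CPM, SD, n = 3), then the progenitor-like (165 ± 111, n = 3), astrocyte-like (124 ± 43.9, n = 3) and Lgals1 classes (107 ± 30.3, n = 2), and neighbours in this order did not differ beyond their spread. In the CD45+ sort it was highest in the microglia-like class, with 197 CPM early, 170 CPM medium and 196 CPM late, a range that the next class did not reach. Dusp6 led in the Lgals1 class (382.5 ± 193.5 CPM, n = 2) and the microglia-like class (294 ± 140, n = 3), which overlapped. In the progenitor-like class Etv5 stood at 293 CPM in the early sample and at 105 and 96.3 CPM in the medium and late samples. The clusters of this class differed by stage. Over both sorts, a cluster that did not meet the hsEGFR marker had 161, 87 and 109 cells from early to late. A cluster that met it had 25, 325 and 533, and another held 115 medium cells alone. The part of this mix in the Etv5 levels was not tested.

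Etv4 was highest among CD45- cells in the progenitor-like class, at 65.4 ± 22.8 CPM (n = 3), followed by the astrocyte-like class at 28.4 CPM. The sample values of the 2 classes did not overlap, but those of the astrocyte-like class rest on 4, 3 and 2 UMIs. Its late value of 45.5 CPM has a counting interval of 5.5 to 164 CPM, which includes the progenitor-like values. Spry1 (188 ± 34.9) and Spry2 (190.5 ± 24.5) also led in the progenitor-like class. Etv1 led in oligodendrocyte-like cells at 343 ± 15.9 CPM (n = 3), above the Lgals1 class at 252 ± 15.5 (n = 2) without overlap. Spry4 and Errfi1 led in an unnamed cluster whose top genes were Rgs5 and Kcnj8 (91.9 ± 51.2 and 110 ± 39.1 CPM). Dusp4 was highest outside the tumor cells, in the B cell-like class of the CD45+ sort (74.0 CPM, n = 1) and the T cell-like class (45.5 ± 54.5, n = 3, from 7.4 to 108). It reached 12.4 ± 0.49 CPM in the Lgals1 class of CD45- cells (n = 2), within the range of the T cell-like class.

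**Figure D4:**
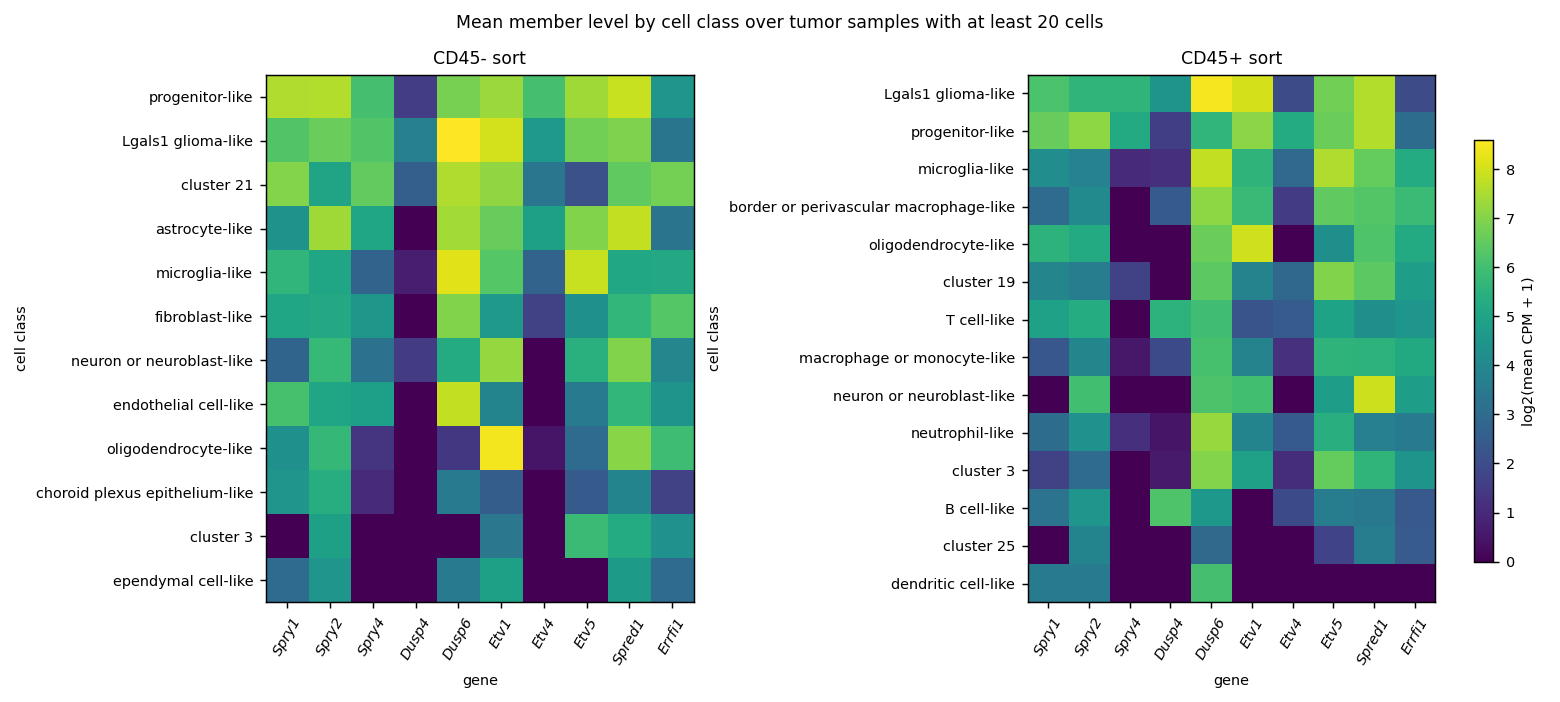
Heat map of log2(mean CPM + 1) for the 10 members (columns) by cell class and sort (rows), with means over tumor samples of at least 20 cells. Colours are to be compared within a column, since transcripts differ in length and capture. Etv4 is strongest in the progenitor-like class, Etv1 in the oligodendrocyte-like class and Dusp6 in the Lgals1 class.

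Cells with hsEGFR were also found in the CD45+ sort, 143 for the medium and 54 for the late sample. Their Spry1 and Spry4 lay above the level of the CD45+ sort as a whole. Spry4 stood at 53.0 and 50.3 CPM there, against 3.6 and 3.0 CPM over all CD45+ cells, and Spry1 at 104.2 and 83.8 CPM against 16.5 and 12.6 CPM. Etv4 stood at 32.2 and 12.6 CPM, and Etv5 at 138.3 and 96.4 CPM. Dusp6 stood at 138.3 and 188.7 CPM, and the late value lay below the 345 CPM of the late CD45- hsEGFR cells.

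Across 61 sums of class, sort and sample, the members did not form 1 pattern. The closest pairs were Etv1 and Spred1 (Pearson's r = 0.70) and Spry1 and Spry4 (0.61), followed by Spry1 with Spry2 (0.52) and Spry2 with Spry4 (0.52). Of 11145 genes outside the lists, those most like the mean of the 10 members were Tspan7 (r = 0.78), Arhgap31 (0.76), Lbh (0.71), Lypd6 (0.70) and Serpine2 (0.70). The sums share libraries and animals, so these are descriptions.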

How the data were processed

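The members and the gene lists were chosen with earlier results of these data known. The authors mapped inDrop reads with RapMap in bcbio-nextgen to the GRCm38 transcriptome (mm10 in the submitters' processing notes), with transgene sequences added, and separated cells from empty droplets. The values deposited by the authors are raw counts, whole UMIs for each cell's genes that were not normalized. The annotation deposited by the authors (unit: other) gives each library's run, sort and stage. Removal of ambient RNA and of doublets is stated for the study, but not whether it preceded the table. Sequencing runs hold all stages and sorts. An item of the study's design is not reported here.

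Cells were kept from 500 UMIs and 500 genes with at most 20% mitochondrial UMIs. Scrublet (scanpy 1.11.5, Python 3.11.15) called 113 of 17786 cells tested as doublets (0.635%), and these were removed. Cells were clustered by Leiden (leidenalg 0.10.2, 2000 variable genes, 40 components, 20 neighbours, resolution 1) without the members. A cluster was named where at least 3 fixed markers were 2-fold higher and in 10% of its cells, and 4 of 29 stayed unnamed.

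UMIs were summed per tumor sample and class, from 20 cells on, and tested with edgeR 4.0.16 (R 4.3.3, quasi-likelihood, TMM, filterByExpr, robust, two-sided, Benjamini-Hochberg over all genes, threshold 0.05). The tumor sample was a block, since both classes come from the same animals. Fits against Pdgfra cells with a sample left out had no block and took in the early Pdgfra sum. Deviations from class means correlated at 0.115, 0.112 and 0.516 over 2 pairs in the 3 comparisons among CD45- cells, and at 0.362, 0.275 and 0.278 between sorts. An SE is the fit's, not a spread over samples. Stages were not tested, with 1 sample each. Ratios within a sample or run add 0.5 counts. Alternatives were DESeq2 1.42.0, scaling, filters, block, left-out samples and runs, thresholds, thinning to 1000 UMIs and doublet handling. The fits by class of hsEGFR cell, UMIs per cell, totals without abundant genes and the early Pdgfra reference were added after seeing the data. Genes outside the members were named by a rule: up to 3 rises and 3 falls of a list among those past the threshold, and the 5 of at least 500 UMIs most like the members' mean of log2(CPM + 1).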

Additional observations from a re-analysis of the deposited data

Results flagged for a closer look

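Of the members, 2 had ratios of CPM that pointed in opposite directions in different stages, each beyond counting error. The share of all genes with such opposite directions was not counted. Counted per cell, the ratios kept opposite directions for Dusp6 between the sorts alone. The differences between stages were not tested, because each stage has 1 tumor sample. Dusp6 in hsEGFR cells against Pdgfra cells had log2 ratios of -0.684 (medium) and 1.49 (late). In hsEGFR cells with Pdgfra against Pdgfra cells it was at -0.691 (medium) and 0.941 (late), with the same reference cells. In UMIs per cell the linear ratios were 1.13 (medium) and 6.86 (late) in the first comparison and 1.26 and 4.98 in the second. Within run 3 the medium log2 ratio of CPM was 0.60 in the first comparison and 1.12 in the second. The late sample held 427 Lgals1-class hsEGFR cells and the medium 57, and Dusp6 in progenitor-like hsEGFR cells stood at 86.5 and 84.6 CPM in the medium and late samples. In Lgals1-class hsEGFR cells it stood at 228.8 and 523.8 CPM, and the part of the class in the split was not tested. Between CD45- and CD45+ cells Dusp6 was at -2.11 (early) and 0.461 (late). Errfi1 between the sorts was at 0.437 (medium) and -0.399 (late). Per cell Errfi1 was higher in the CD45- sort in each sample, with linear ratios of 1.46, 2.27 and 1.39 from early to late, while those of Dusp6 were 0.325, 1.7 and 2.52.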

How the results depend on the processing

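Levels above the cells with neither marker, where 35.8% of genes lay above, held for 8 of 10 members under all 6 alternatives. For hsEGFR against Pdgfra cells the 2 calls became 1 with DESeq2, without run 3, from 3000 UMIs or with progenitor-like hsEGFR cells, 0 without run 2 or with Pdgfra from 1 UMI, 4 with Lgals1-class cells, and 1 to 1 with a sample left out, where the lone hsEGFR sum is assumed to vary like the others. That call was Dusp6 without the medium sample, where Etv5 and Etv4 were both lost, and Etv5 without the late one. In hsEGFR Pdgfra cells the 1 call became 0 with DESeq2, no filter, without the medium sample, without any run, at hsEGFR 5 UMIs, and when thinned. Without against with Pdgfra, the 4 calls became 2 with doublets kept or every deposited cell, 1 with DESeq2, without run 1 or without run 2, and 0 when thinned. There, no replicate block left 0 calls, and 12 of all genes where 1160 passed with it (1346 at an unadjusted p under 0.05). The block changed no call of a member in the other comparisons. Between sorts no count moved by over 1.5 times, and it was 4 to 7 with a sample left out, while Spry1 was not called without the filter (1.54). Leaving out a sample without against with Pdgfra leaves no residual degrees of freedom and was not run.

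Over all genes, DESeq2 called 663, 389 and 348 in the 3 CD45- comparisons where edgeR called 1523, 1068 and 1160. In hsEGFR against Pdgfra cells 590 passed from 3000 UMIs, 623 when thinned, 819 and 834 without runs 1 and 3, 942 with Pdgfra from 1 UMI, 867 with progenitor-like and 2291 with Lgals1-class cells. In hsEGFR Pdgfra cells 41 passed when thinned (338 unadjusted), 454 without run 1 and 573 without run 3. Without against with Pdgfra 743 and 481 passed without runs 1 and 2, 287 with both groups progenitor-like and 102 when thinned.

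Reversed values in hsEGFR against Pdgfra cells were uncalled in the reported fit, except Etv5 per cell in the late sample (0.282, no test). Dusp6 was -0.15 without the late sample (1.77 without the medium one), -0.62 with both groups progenitor-like and -0.76 with progenitor-like hsEGFR cells alone. Spry2 was 0.046, 0.061 and 0.20 without the late sample (-0.39 without the medium one), with progenitor-like cells and with Pdgfra from 1 UMI. Etv1 was -0.21 with both groups progenitor-like and -0.22 thinned, and Errfi1 0.68 with both groups progenitor-like.

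In hsEGFR Pdgfra cells Spry2 was -0.026 without TMM factors, -0.067 without the medium sample, -0.018 with top doublet scores removed, -0.19 without run 2 and -0.15 with both groups progenitor-like. Spry1 was 0.088 without the medium sample (-0.12 without the late one) and 0.082 without run 1. Dusp6 was -0.22 without the late sample (1.17 without the medium one), -0.19 without run 3, -0.66 with both groups progenitor-like and -0.55 thinned. Etv1 was -0.18 thinned, and Errfi1 0.016 with top doublet scores removed. The called Etv5 was 0.71 per cell in the late sample.

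Without against with Pdgfra, Errfi1 was 0.036 with DESeq2, 0.013 without filter, 0.0055 with no replicate block, 0.068 with doublets kept, 0.072 with every cell, 0.89 without run 1, 0.17 at hsEGFR 5 UMIs and 0.52 with both groups progenitor-like. Etv1 was -0.069 without TMM, -0.020 with every cell, -0.15 without run 3, -0.0092 and -0.11 at hsEGFR 1 and 5 UMIs, -1.17 with both groups progenitor-like and -0.20 thinned. Dusp4 was -0.33 with DESeq2, Spry4 0.23 without run 1, and called Dusp6 -1.44 in run 3 and -0.21 per cell in the medium sample. Between sorts Errfi1 was 0.030 without TMM, and called Etv4 -0.56 and -0.039 in runs 1 and 2 of the early sample, and called Etv5 0.37 per cell in both the medium and the late sample. The causes were not tested. Of 50 levels, 6 moved by more than counting error as per-cell means, and 3, 7 and 7 without runs 1, 2 and 3.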
